A study of Homo sapiens with 12 samples.

Results

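The gene examined here is APOB, with the chromatin around it. APOB spans 42645 bp of chromosome 2, from 21224301 to 21266945 on the minus strand (GRCh37), so its annotated start lies at 21266945 and higher positions are upstream of it. The peaks described are those that overlap the 250 kb from 21150000 to 21400000, a rule that uses position and no measured value, although the gene was picked with earlier results of these data known. They number 69 of the 273551 peaks listed on chromosomes 1 to 22 and X: 25 of 66513 for H3K27ac, 41 of 182592 for H3K4me1 and 3 of 24446 for H3K4me3.

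The cells were HepG2, an established and untreated line derived from a human hepatocellular carcinoma. Chromatin immunoprecipitation followed by sequencing (ChIP-seq) was made with antibodies to the 3 histone marks, in 3 libraries per mark, and 3 control libraries are titled input but carry an anti-mouse IgG antibody label. Each immunoprecipitation used 300 ng of sheared DNA, and the series' stated purpose was to rank variants by their chance of being causal. The values analysed were 1 pooled peak list per mark, so no spread between replicates could be measured, no difference was tested, and the depth behind the peaks is unknown.

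APOB encodes apolipoprotein B, the structural protein around which the liver assembles very-low-density lipoproteins and which remains on low-density lipoproteins as the ligand of the LDL receptor. The intestine makes a shorter form of the protein by editing the same mRNA, and builds chylomicrons with it. Hepatocytes, and HepG2 cells as a model of them, transcribe the gene at a high level, under liver factors such as HNF4A and the C/EBP and FOXA families. H3K4me3 is a mark of promoters, H3K4me1 of enhancers and promoter flanks, and H3K27ac of promoters and enhancers in use. In the order of the RefSeq gene table (assembly GRCh38.p14, used for names only), APOB lies between LINC02850, a long non-coding RNA gene beyond which comes LDAH, which encodes a lipid droplet hydrolase, and LOC124905593, a long non-coding RNA gene followed by LOC124908055 and TDRD15.

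The start of APOB lay inside an H3K4me3 and an H3K27ac peak, and an H3K4me1 peak adjoined it on the upstream side. Each of the 3 ranked above percentile 98 of its own list. The H3K4me3 peak ran from 21261437 to 21267850, with the authors' signal value (the enrichment their peak caller assigned to a peak) at 75.5, against a list median of 13.3. It ranked 199th of 24446 by signal value (percentile 99.2), 182nd by width at 6414 bp, and 75th by −log10 p-value at 10098. The H3K27ac peak ran from 21258262 to 21268488 with a signal value of 50.3, against a list median of 3.15. It ranked 803rd of 66513 by signal value (percentile 98.8) and 280th by width, at 10227 bp. The H3K4me1 peak on the upstream side, from 21267108 to 21268742, had a signal value of 9.94 against a list median of 3.42, and ranked 2170th of 182592 (percentile 98.8). H3K4me3 and H3K27ac, the marks by which the active state of the gene was checked in these cells, were thus both found at its start.

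**Figure D1:**
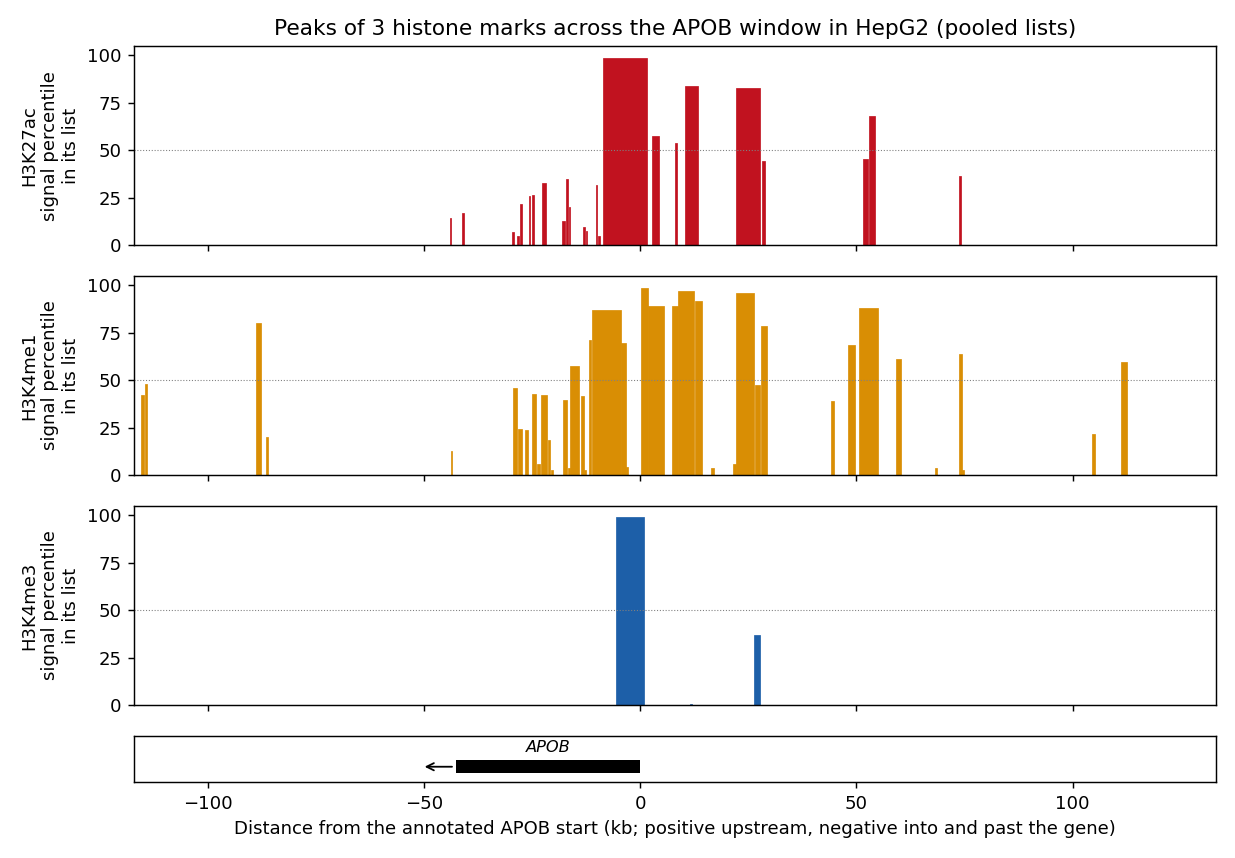
Peaks of H3K27ac, H3K4me1 and H3K4me3 across the APOB window. The x axis is the distance from the annotated start in kb, positive upstream; each bar spans a peak, its height is the percentile of the peak's signal value within its own list, the dotted line is the list median, and the black bar is the gene with its direction of transcription. The tallest H3K27ac and H3K4me3 bars, at percentiles 98.8 and 99.2, cover the start, and the low H3K27ac bars to their left lie in the gene.

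The marks at the start were displaced into the gene. H3K4me3 reached 0.905 kb upstream of the start and 5.51 kb into the gene, and H3K27ac reached 1.54 kb upstream and 8.68 kb into the gene. Their summits, the positions of highest signal within the peaks, lay 330 bp and 265 bp inside the gene and 65 bp from each other. An H3K27ac summit at least as near as this accompanied 26.6% of all H3K4me3 summits, so the closeness of the 2 summits was common. The lopsided shape was less common: the longer side of the H3K4me3 peak made up 80.7% of its width, a share reached by 537 of 24446 H3K4me3 peaks (2.20%). Both long arms pointed along the direction of transcription, while orientation was not determined for the other peaks of the list.

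H3K4me1 was missing from the start itself. No H3K4me1 peak lay between 21264167 and 21267107, a gap of 2941 bp that began 162 bp upstream of the start and ended 2778 bp into the gene. Positions 500, 1000 and 2000 bp upstream of the start were inside H3K4me1 peaks, and the start and the positions 500, 1000 and 2000 bp into the gene were outside them. At the H3K4me3 summit the mark was thus absent, with H3K4me1 present 1000 bp away on the upstream side and absent 1000 bp into the gene. This arrangement, absent at the summit and present on 1 side, held for 24.4% of all H3K4me3 summits and for 44.1% of those in the top quartile by signal value, to which the APOB peak belonged. H3K4me1 resumed deeper in the gene under the far part of the H3K4me3 peak, with peaks of signal value 2.21 and 4.29 whose summits lay 2.93 and 4.06 kb from the start. The next, of signal value 5.87, overlapped the H3K4me3 peak by 1022 bp and had its summit beyond it, 7.41 kb from the start. At 6666 bp, from 21255793 to 21262458, it ranked 1020th of 182592 by width.

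**Figure D2:**
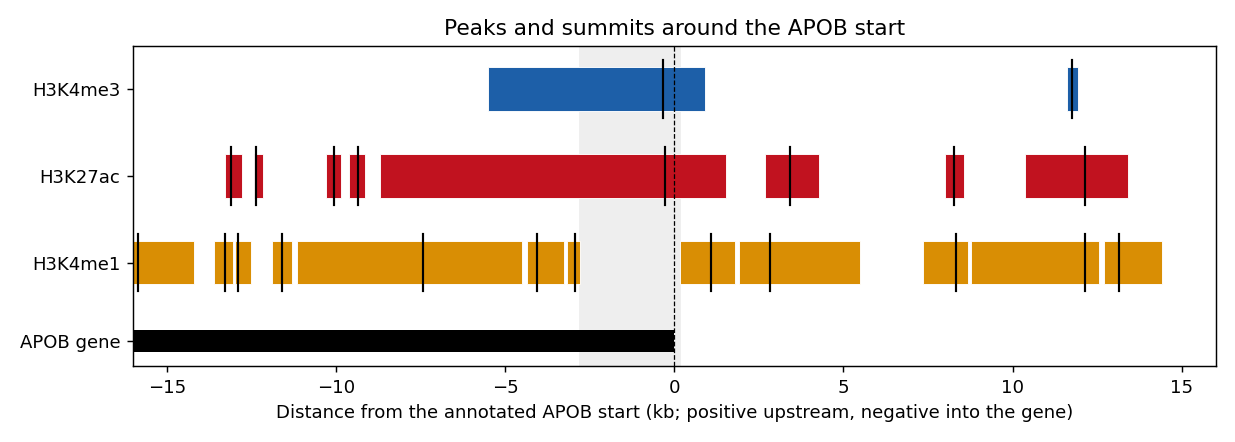
Peaks (bars) and summits (black ticks) of the 3 marks within 16 kb of the APOB start. The x axis is the distance from the start in kb, positive upstream, the dashed line is the start, the black bar is the gene, and the grey band is the H3K4me1 gap of 2941 bp, which holds both the H3K4me3 and the H3K27ac summit.

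Inside the gene, acetylation outside the promoter peak was weak and broken up. The gene body, taken as the part of the gene more than 2 kb from the start, held 15 H3K27ac summits. Their signal values ran from 1.51 to 2.41 with a median of 1.99, their widths from 255 to 786 bp, and their percentiles from 0.419 to 34.8. All 15 were below the median signal value of the list, which by definition separates 50% of all H3K27ac peaks. The strongest, at 21249739 to 21250169, had a signal value of 2.41, and the weakest, at 21242953 to 21243439, had 1.51. Of the 15, 12 overlapped H3K4me1, as did 87.4% of all H3K27ac peaks, and 0 overlapped H3K4me3, against 31.7%. That 0 follows from how the peaks were placed. The only H3K4me3 peak reaching the gene body was that of the promoter, and all its 6414 bp lay inside the H3K27ac promoter peak. No H3K4me3 summit lay in the gene body, although the promoter peak covered 3.51 kb of it.

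H3K4me1 covered more of the gene body than acetylation did. It had 17 summits in the gene body, with signal values from 2.13 to 5.87 (median 3.11), of which 4 were above the list median. It covered 46.9% of that segment, against 33.9% for H3K27ac with its promoter peak included. Without that peak H3K27ac covered 17.5%, still as a share of the whole segment. H3K4me1 covered 65.4% of the 21.3 kb of the gene nearer the start and 24.0% of the 21.3 kb nearer the end. H3K27ac covered 55.4% and 18.6% of them. Without the promoter peak it covered 14.7% and 18.6%, with 7 and 8 summits, still as shares of the whole parts. In the part nearer the start, 8.68 kb lay under the promoter peak, where no other H3K27ac peak could be listed. These shares therefore do not tell whether the weak peaks were equally dense in both parts. The end of the gene was almost bare: 1 H3K27ac peak of signal value 1.99 lay just inside it, from 21225888 to 21226181, without H3K4me1. Just beyond the end, an H3K27ac peak of signal value 1.95 from 21223052 to 21223312 overlapped an H3K4me1 peak of signal value 2.48. Which exons or introns these peaks occupied was not analysed here.

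Upstream of the start, acetylated regions stood in separate groups. H3K27ac had 8 summits there, with signal values from 2.47 to 15.2 (median 3.69), and 5 of the 8 were above the list median. Those 8 signal values and the 15 of the gene body did not overlap, but the margin was narrow. The lowest upstream value was 2.47 (percentile 36.5) and the highest gene-body value 2.41 (percentile 34.8). How often other groups of peaks in the list separate in this way was not examined. All 8 upstream peaks overlapped H3K4me1, as did 87.4% of all H3K27ac peaks. The strongest was the peak from 21277319 to 21280372, with its summit 12.1 kb upstream, a signal value of 15.2 (percentile 83.7) and a width of 3054 bp. Its summit lay 15 bp from that of the H3K4me1 peak from 21275716 to 21279507, which had a signal value of 8.44 (percentile 97.1), the second highest among the H3K4me1 peaks of the window. A further H3K4me1 peak of signal value 6.67 (percentile 91.8) adjoined it, from 21279654 to 21281362. A faint H3K4me3 peak of 321 bp, from 21278547 to 21278867 with a signal value of 1.52 (percentile 0.477), lay within both.

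The next group upstream carried the remaining H3K4me3 peak of the window, which was below the list median signal value of 13.3. There the H3K27ac peak from 21289214 to 21294637 had a signal value of 14.4 (percentile 82.8) and a width of 5424 bp, which ranked 1884th of 66513. Its summit was 26.6 kb upstream of the start. At its far end lay an H3K4me3 peak from 21293280 to 21294565, with a signal value of 5.88 (percentile 37.0) and its summit 26.8 kb upstream. The acetylated region was overlapped by 2 H3K4me1 peaks, with a signal value of 7.90 (percentile 95.9) from 21289158 to 21293255 and of 3.34 (percentile 47.3) from 21293542 to 21294618. Unlike the summit at the APOB start, this H3K4me3 summit lay inside H3K4me1, as did the faint one. Whether the H3K4me3 peak falls at the start of LOC124905593, the next gene by order, was not determined, because no annotation of this build was used.

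The remaining upstream regions were weaker. Closest to the gene, an H3K27ac peak of signal value 3.91 from 21269625 to 21271231 had its summit 3.41 kb upstream. It lay inside an H3K4me1 peak of signal value 6.19 (percentile 89.3), from 21268851 to 21272450. A peak of signal value 3.48 followed with its summit 8.28 kb upstream, and one of 2.81 with its summit 28.4 kb upstream. Farther out, a pair of H3K27ac peaks at 21318450 to 21319677 and 21319908 to 21321369 had signal values of 2.85 and 6.04 (percentiles 45.4 and 68.2), with summits 52.3 and 53.6 kb upstream. Both lay inside 1 H3K4me1 peak of 4370 bp, from 21317658 to 21322027, with a signal value of 6.01. In transgenic mice, elements required for APOB expression in the intestine have been placed far upstream of the gene, and whether this pair corresponds to one of them was not examined. The outermost acetylated peak, from 21340774 to 21341202, had a signal value of 2.47 and its summit 74.0 kb upstream.

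**Figure D3:**
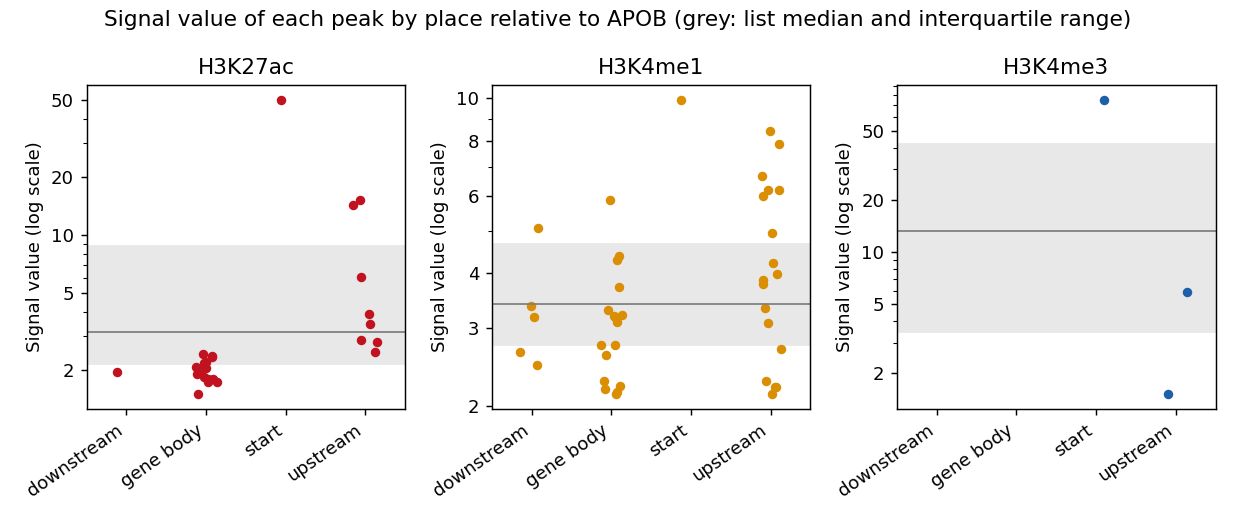
Signal value of each peak (points, log scale) by the place of its summit: downstream of the gene, in the gene body, within 2 kb of the start, or upstream. Grey lines and bands are the median and interquartile range of the whole list. The 15 H3K27ac points of the gene body, 1.51 to 2.41, all lie below the list median of 3.15, and 5 of the 8 upstream points lie above it.

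By mark combination, acetylated peaks at APOB were mostly paired with H3K4me1 alone. Of the 25 H3K27ac peaks, 19 (76.0%, 95% Wilson interval 56.6 to 88.5) overlapped H3K4me1 without H3K4me3, against 59.8% of all H3K27ac peaks. H3K4me3 was overlapped by 3 (12.0%, 4.17 to 30.0), against 31.7% of the list. The 3 that overlapped neither methylation (12.0%, against 8.52%) all lay in the gene body. Among these 3 shares, the list value fell outside the interval only for H3K4me3. It fell inside with the stronger 50% of each list (1 of 6, interval 3.01 to 56.4, list 38.6%) and with 200 bp on both sides of each summit (3 of 25, list 21.2%). The intervals cover counting error alone and treat neighbouring peaks as independent. Of the 41 H3K4me1 peaks, 24 (58.5%, 43.4 to 72.2) overlapped H3K27ac, against 33.4% of all H3K4me1 peaks, and 17 (41.5%, 27.8 to 56.6) overlapped neither other mark, against 61.6%. The 24 had a median signal value of 3.53 (2.13 to 9.94) and the 17 a median of 2.74 (2.13 to 5.09), so the ranges overlapped. Of the 17 H3K4me1 peaks without another mark, 9 were upstream, 4 in the gene body and 4 downstream of the gene. All 3 H3K4me3 peaks overlapped both other marks, as did 74.1% of the list.

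When peaks no more than 10 kb apart were joined, the start of APOB lay in a single acetylated domain of 58.5 kb, from 21237252 to 21295757. It held 20 H3K27ac peaks, which covered 48.4% of it, and reached 29.7 kb into the gene and 28.8 kb upstream. It ranked 283rd by length among 24025 joined H3K27ac domains, whose median was 2.54 kb, and 1.18% of them were at least as long. As many peaks or more were held by 0.762% of them. The corresponding H3K4me1 domain, 58.6 kb from 21237623 to 21296254 with 27 peaks, had nearly the same ends, differing by 371 bp in the gene and 497 bp upstream. It ranked 1836th of 38806 by length, 4.73% were at least as long, and 2.46% held as many peaks or more. Beyond these domains, H3K27ac left 22.7 kb free before the pair of peaks between 51.5 and 54.4 kb upstream.

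Taken over the whole window, H3K27ac covered 32.0 kb, H3K4me1 53.1 kb and H3K4me3 8.02 kb. When chromosomes 1 to 22 and X were cut into 12127 tiles of the same length, at least as much was covered in 6.16% of tiles by H3K27ac, in 9.12% by H3K4me1 and in 16.8% by H3K4me3. The tile medians were 1.12, 4.78 and 0.714 kb. Tiles include stretches of the genome without genes or without sequence, and 42.7% held no H3K27ac. Most of the H3K4me3 in the window, 6414 bp, came from the single peak at the start.

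The marked region stood next to a long stretch without acetylation. In the adjoining 250 kb upstream there were 0 H3K27ac, 0 H3K4me3 and 10 H3K4me1 peaks, and in the adjoining 250 kb downstream there were 3, 1 and 20. Within 1 Mb of the start, 71 H3K27ac peaks lay outside the window on the downstream side and 0 on the upstream side. For H3K4me3 these numbers were 21 and 0, and for H3K4me1 163 and 11. From the last acetylated peak upstream of APOB to the next, 937.3 kb held no H3K27ac, from 21341203 to 22278536. Gaps at least as long made up 0.747% of all 66490 gaps between neighbouring H3K27ac peaks, whose median was 4.08 kb. For H3K4me3 the upstream gap was 2313 kb, a length reached by 0.430% of the 24423 gaps of that list. On the downstream side H3K27ac was absent for 199.7 kb, from 21023383 to 21223051, a length reached by 3.78% of its gaps, and H3K4me3 for 237.9 kb, reached by 10.2%.

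**Figure D4:**
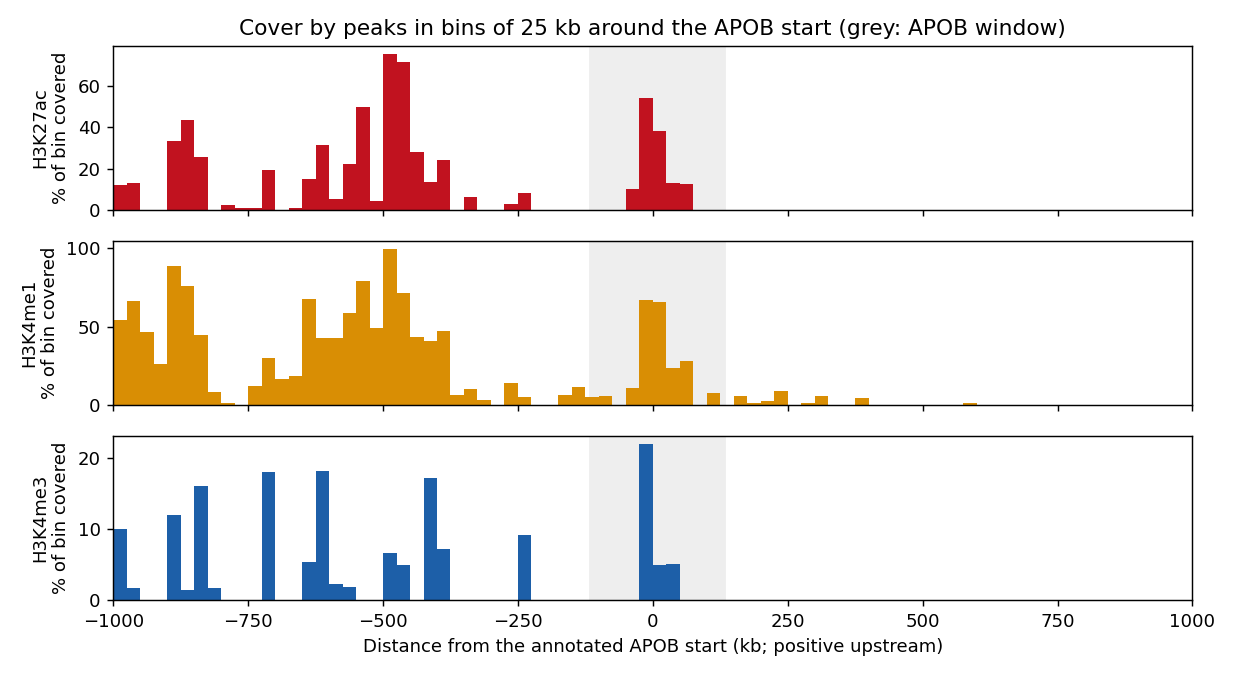
Share of each bin of 25 kb that was covered by peaks of H3K27ac, H3K4me1 and H3K4me3, by distance from the APOB start in kb (positive upstream). The grey band is the APOB window. Bars for H3K27ac and H3K4me3 continue on the downstream side after a gap and are absent upstream of the window over the 1 Mb shown.

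Other tiles covered by H3K27ac at least as much as this window also had a neighbour without acetylation. Of 743 such tiles that have a neighbour on both sides, 87 (11.7%) had an empty tile on at least 1 side. That count concerns adjoining tiles of 250 kb and not an empty run of 937.3 kb, and the same share over all tiles is not given here. The limits of the window fell in poorly marked chromatin. The outermost peaks included were H3K4me1 peaks of signal value 3.19, with its summit 115.3 kb downstream of the start, and 3.79, 111.8 kb upstream. The nearest peaks left out were H3K4me1 peaks of 4.27, at 131.6 kb downstream, and 3.66, at 170.5 kb upstream. The nearest H3K27ac left out was a peak of signal value 35.6 (percentile 96.0) from 21021279 to 21023382, with its summit 244.3 kb downstream of the start, together with an H3K4me3 peak of 46.6.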

How the data were processed

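The 3 marks were profiled by ChIP-seq in HepG2 cells, with paired reads of 51 bp and 10 to 16 cycles of library PCR, per the labels' protocols. Per the submitters' processing notes the build was hg19 (GRCh37) and MACS2 was used, with no version given. The aligner, the threshold and the use of the control libraries are not given in the sources used here. The lists pool the 3 replicates, going by their names. The signal value of each peak is the authors' deposited value, whose reference level no source used here gives. The −log10 p-values and −log10 q-values were also deposited per peak. The deposited score was not used. Signal values were ranked only within a list.

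A percentile is the share of peaks of the list with a lower value, plus 0.5 of the ties. Overlap required 1 bp. Positions count from 1. Peaks were placed by summit as start (within 2 kb), gene body, upstream or downstream. Tiles ran from the first base to the last peak of each chromosome. Named peaks were the H3K4me3 peaks, those within 2 kb of the start, the 5 strongest of H3K27ac and of H3K4me1, and the strongest H3K27ac peak upstream and downstream. Other peaks named here were chosen after their values were seen. The window, the gene and the comparisons were chosen with earlier results of these data known. The gaps beyond the window, the lopsidedness, the parts of the gene, the cover without the promoter peak and the reach of 1 Mb were added after the data had been seen. A planned letter search of the APOB promoter was not run. Exons, introns and sequences were not analysed here. Interval arithmetic was tested on simulated data. Python 3.11.15, numpy 2.4.6, scipy 1.17.1 and matplotlib 3.10.9 were used.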

Additional observations from a re-analysis of the deposited data

How the results depend on the processing

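No paired analysis was possible because the lists pool the replicates and no test was made. Leaving out a replicate was not possible for the same reason. For 22 results 95 values were computed under other settings. Of these, 69 stayed within 1.5 times the count or length, or within the 95% Wilson interval of the share, and 26 moved, 16 of them lower and 10 higher. The 69 include values that could not move: requiring the summit to lie in the window selected the same peaks, since no peak crossed its limits.

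Keeping the stronger 50% of each list left 6 H3K27ac, 17 H3K4me1 and 1 H3K4me3 peaks, with 0 H3K27ac peaks in the gene body and 5 upstream. It shortened the joined acetylated domain to 36.4 kb. It left 0% of H3K27ac peaks without either methylation (0 of 6, interval 0 to 39.0), and the list value of 7.18% fell inside. It put the cover of the window at percentile 91.5 for H3K27ac and 89.5 for H3K4me1, against 93.8 and 90.9 as listed. Fewer peaks follow from how this setting is built. A −log10 q-value of at least 5 left 9 H3K27ac peaks in the gene body, and put the cover at percentile 93.2 for H3K27ac and 82.4 for H3K4me3, which was 83.2 as listed. Narrowing the window by 50 kb on each side raised the percentiles to 97.7, 96.3 and 91.7 for H3K27ac, H3K4me1 and H3K4me3. The cover of H3K27ac and of H3K4me3 stayed at 32.0 and 8.02 kb while the tiles became shorter, so for them a rise was built into this setting. A start region of 5 kb held 2 H3K27ac peaks. Ranking by −log10 p-value put the start peaks at percentiles 99.1 (H3K27ac), 99.5 (H3K4me1) and 99.7 (H3K4me3).

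Overlap shares also moved. With overlap of 50% of the peak, 4.00% of H3K27ac peaks overlapped H3K4me3 (26.7% of the list), 39.0% of H3K4me1 peaks overlapped H3K27ac (21.4% of the list) and 61.0% overlapped neither (74.9%). When each peak was replaced by 200 bp on both sides of its summit, 40% of H3K27ac peaks overlapped H3K4me1 without H3K4me3 (39.8% of the list) and 48.0% neither (39.0%). H3K4me1 peaks then overlapped H3K27ac in 31.7% (15.9% of the list) and neither mark in 68.3% (82.1%). The H3K4me1 share with H3K27ac was above that of the list under both these settings, whereas the share of H3K27ac with H3K4me1 alone equalled it closely in the summit windows. The depth behind the peaks is unknown, and 7 of 25 H3K27ac, 12 of 41 H3K4me1 and 1 of 3 H3K4me3 peaks had a −log10 q-value under 5. That H3K4me3 peak was the faint one of 321 bp. In the whole lists, 51567 of 66513 H3K27ac and 125359 of 182592 H3K4me1 peaks had a −log10 q-value of at least 5. Peaks under 5 were therefore not particular to this window.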

Other observations

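Of the 25 H3K27ac summits, 18 (72.0%) lay inside an H3K4me1 peak, against 68.7% of all H3K27ac summits, a similar share. Differences between places were not tested. All 8 upstream summits were inside one, among them the summit 74.0 kb upstream, which was 28 bp from the nearest H3K4me1 summit. The 7 that were outside were the summit at the APOB start, 5 in the gene body and the one beyond the end of the gene. At the start the nearest H3K4me1 summit was 1342 bp away.

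Between the end of APOB and the downstream limit of the window, 1 of 5 H3K4me1 peaks overlapped H3K27ac, against 33.4% of all H3K4me1 peaks, too few to tell from the list. The strongest of the other 4, from 21178144 to 21179254, had a signal value of 5.09 (percentile 80.3) with its summit 88.5 kb from the start. It was stronger than 16 of the 17 H3K4me1 peaks of the gene body and 12 of the 18 upstream. A stretch of 42.2 kb with no peak of any mark, from 21180848 to 21223051, separated these peaks from the end of the gene.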
